A study of Drosophila melanogaster with 17 samples.

Results

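The 33 genes described here encode ATP-binding cassette (ABC) transporters and carriers of organic ions that were measured in adult brains of Drosophila melanogaster. Of these, 29 were named in a list of ABC and Oatp genes that left out Mdr65, Mdr49, CG10226 and the pigment transporters, and the other 4 (Oatp30B, Oatp58Dc, Orct and Orct2) were added because their platform gene symbol began with Oatp or Orct. They were 33 of the 8938 genes with a single symbol in the table, and where a gene had several probe sets, that with the brightest average signal stood for it. By subfamily they comprised 6 ABCA, 3 ABCB, 5 ABCC, 3 ABCF and 10 ABCG genes, 4 Oatp genes and 2 Orct genes, with ABC subfamilies assigned from general knowledge of these genes, since the files do not give them. The rule for the genes names no measured value apart from the choice of probe set. However, the genes were chosen with earlier results of these data known. Only genes kept in the deposited table, whose filter is not described, could enter.

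ABC transporters use the energy of ATP to move lipids, hormones, metals or foreign compounds across membranes, and those at the blood-brain barrier of the fly carry drugs out of the brain. Oatp proteins take up organic anions, including steroids, and Orct proteins are relatives of the mammalian organic cation and anion carriers. In the fly the barrier is built by surface glia, whose junctions close the path between cells while efflux pumps clear what crosses the cells themselves.

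RNA of whole adult brains was hybridised to 17 Affymetrix arrays in 5 groups, with pooled RNA of 4 brains from both sexes on each array. Flies of C17 (3 arrays) were null for moody, which encodes a G protein-coupled receptor needed to seal the barrier, and those of PMdr65 (3 arrays) were null for Mdr65, an ABCB drug efflux pump. WT_new (3 arrays) and WT_old (5 arrays) were Canton S wild type, and UAS_control (3 arrays) carried UAS-Mdr65-RNAi, for which the labels name no driver. The series gives WT_new as the main control, processed on another day than the mutants, WT_old as a check on the batch and UAS_control as a check on the genetic background. Day and genotype therefore cannot be told apart in the contrasts with WT_new, and each null allele was represented by a single named line. Both mutants had another genetic background than Canton S, similar to that of UAS_control. The labels give no age beyond the adult stage. Whether arrays within a group stem from separate fly cultures is not stated, so the p-values reflect the variation among these 17 arrays, which may be technical.

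The values are log2 signals after robust multi-array averaging (RMA), and a difference of 1 is a doubling. The targeted genes followed the labels: moody lay between 2.10 and 2.30 in C17 and between 9.65 and 11.42 elsewhere, and Mdr65 between 4.65 and 4.72 in PMdr65 and between 9.35 and 11.23 elsewhere. The 6 measured neuronal markers, such as elav and brp, averaged 11.85 to 12.08 on every array. The 7 measured of 8 glial markers, such as repo and Gat, averaged 11.59 to 11.64 in PMdr65, above all control arrays (11.11 to 11.53), and 11.49 to 11.56 in C17, which overlapped the controls. Of these 7 genes, 2 (wrapper and drpr, but not repo or Gat) were called higher in PMdr65 against all 3 control groups and 0 in C17. Averages of the eye, fat body and muscle markers were higher on some control arrays than on others, and their values are given with the ABCG genes below. In pooled brain RNA, fewer cells of a type and less RNA per cell cannot be told apart.

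**Figure D1:**
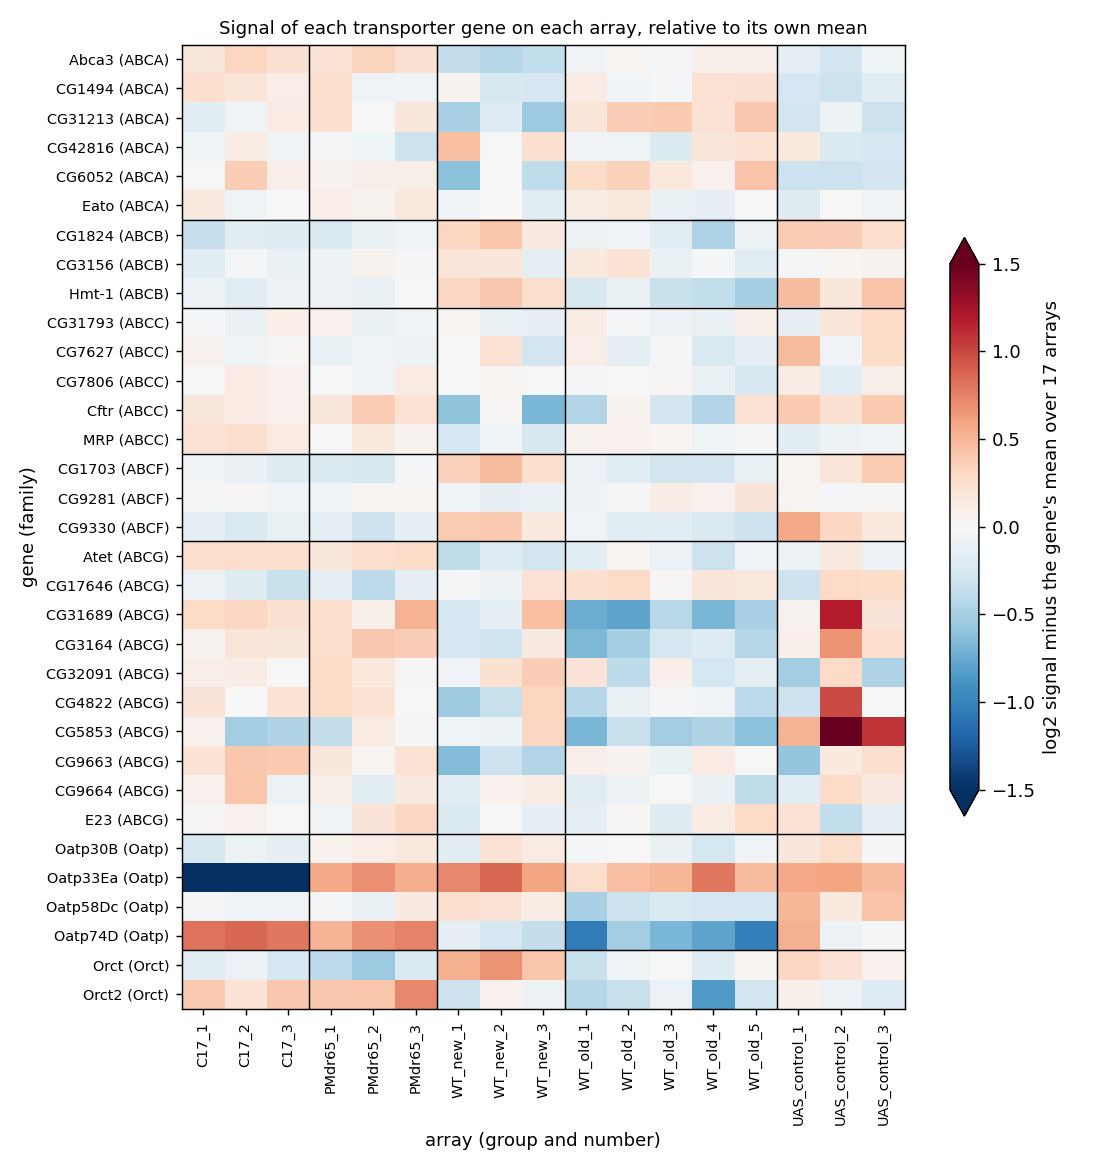
Log2 signal of each of the 33 genes (vertical axis, ordered by subfamily) on each of the 17 arrays (horizontal axis), as a difference from that gene's own mean over all arrays. Colours stop at 1.5 in either direction. Oatp33Ea is dark blue on the 3 C17 arrays alone, Oatp74D is red on the 6 mutant arrays and blue on the 5 WT_old arrays, and CG5853 is dark red on UAS_control arrays 2 and 3.

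Of the 33 genes, 5 were higher and 1 was lower in C17 than in each of the 3 control groups, at an adjusted p under 0.05 in every contrast. The higher genes were Abca3, MRP, Atet, Oatp74D and Orct2, and the lower gene was Oatp33Ea. These counts are 15.2% and 3.03% of the genes, against 4.37% higher and 2.27% lower among all 8938 genes. In PMdr65, 4 genes were higher (Abca3, Atet, Oatp74D and Orct2) and 1 was lower (Orct), which is 12.1% and 3.03%, against 5.87% and 3.18% of all genes. All mutant arrays lay above all 11 control arrays for 5 of the genes in C17 (7.13% of all genes) and below them for 1 (3.82%). In PMdr65 the arrays lay above all control arrays for 3 genes (7.51% of all genes) and below them for 0 (4.77%). Both mutants were set against the same control arrays, so the genes they share are not independent observations. The counts were small and moved with single arrays: they ranged from 2 to 6 in C17 and from 2 to 5 in PMdr65 when each array was left out in turn, with the lowest counts without C17 array 2 and without PMdr65 array 2.

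Some markers of the surface glia were higher in the mutants as well. The mean log2 signal of 10 such markers of 10 written, taken without moody and Mdr65 (Gli, cold, ltl, Tret1-1, LpR1, LpR2, vkg, PRL-1, CG3168 and CG6126), was 9.895 to 10.003 on the C17 arrays and 10.141 to 10.207 on the PMdr65 arrays. It was 9.14 to 9.37 in WT_new, 9.05 to 9.38 in WT_old and 9.52 to 9.55 in UAS_control, so that the mutant arrays lay above all control arrays here too. In each mutant 6 of the 10 markers were called higher against all 3 control groups and 0 lower; Tret1-1, vkg and CG6126 were called in neither. Gli contributed most, with changes of 1.82 to 2.84 in C17 and 4.02 to 5.04 in PMdr65. Without it, a choice made after seeing the data, the remaining 9 averaged 10.17 to 10.26 in the mutants and 9.41 to 10.01 in the controls. The part of the glial markers in the transporter results was not tested.

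**Figure D2:**
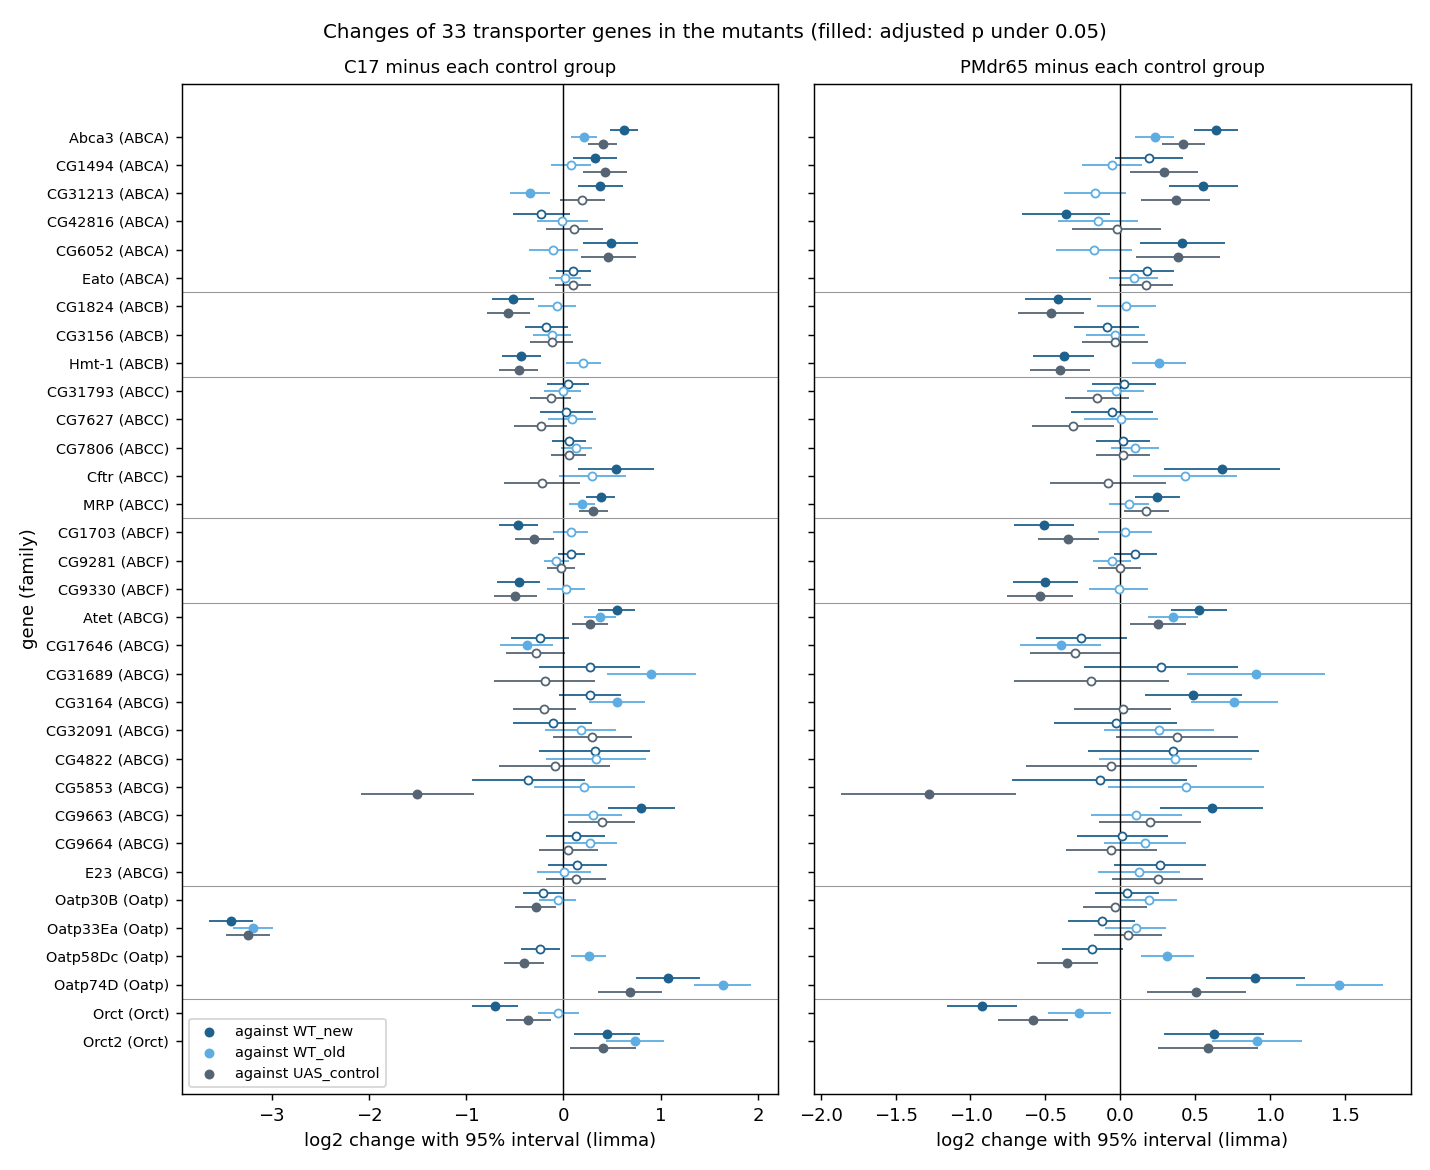
Log2 change of each of the 33 genes in C17 (left) and PMdr65 (right) against each control group, with the 95% interval from limma; filled points have an adjusted p under 0.05, and the horizontal scales of the 2 panels differ. Points of 3 colours on 1 side of 0, all filled, mark the genes called against all 3 control groups.

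Among the 6 ABCA genes, whose mammalian relatives move lipids, Abca3 was called in both mutants. Its log2 signal was 9.27, 9.42 and 9.32 in C17 and 9.30, 9.43 and 9.33 in PMdr65. In the controls it was 8.75, 8.67 and 8.73 in WT_new, 9.05, 9.14, 9.09, 9.18 and 9.17 in WT_old, and 8.96, 8.81 and 9.04 in UAS_control. Every mutant array was higher than every control array, and the control groups themselves lay in separate ranges, WT_new lowest and WT_old highest. The log2 change in C17 was 0.62 ± 0.07 (SE) against WT_new, 0.21 ± 0.06 against WT_old and 0.40 ± 0.07 against UAS_control, with a highest adjusted p of 0.0236. In PMdr65 it was 0.64, 0.23 and 0.42, with a highest adjusted p of 0.0112. The call in C17 was lost if array 2 or 3 of C17 or array 3 of WT_old was left out (highest adjusted p 0.0501 to 0.136) and with median centring (0.0553), and that in PMdr65 without PMdr65 array 2 (0.0709).

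CG1494, the gene next to Abca3 in the RefSeq order, was called in C17 against WT_new (0.32) and UAS_control (0.43) but not WT_old (0.08, adjusted p 0.63), and in PMdr65 against UAS_control only (0.29). CG6052 followed the same division of controls in both mutants, with 0.49 and 0.46 in C17 and 0.41 and 0.38 in PMdr65 against WT_new and UAS_control, but -0.10 and -0.18 against WT_old. CG31213 went in opposite directions in C17, higher than WT_new by 0.38 and lower than WT_old by 0.35. It was higher in PMdr65 than in WT_new (0.55) and UAS_control (0.37) and not called against WT_old (-0.17). CG42816 was called in PMdr65 against WT_new, where it fell by 0.36, and Eato was called in no contrast. The median change of the 6 genes in C17 was 0.35 against WT_new, 0.002 against WT_old and 0.30 against UAS_control, and in PMdr65 0.30, -0.10 and 0.33. The median over all genes lay between -3e-04 and 0.02 in the same 6 contrasts.

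Of the 3 ABCB genes, 0 were called against all 3 control groups. CG1824 was lower in both mutants than in WT_new and UAS_control, with log2 changes of -0.52 and -0.57 in C17 and -0.42 and -0.46 in PMdr65. Against WT_old its changes were -0.07 and 0.04, and neither was called. Hmt-1, named for its role in heavy metal tolerance, changed by -0.43 and -0.46 in C17 and by -0.38 and -0.40 in PMdr65 against the same controls. Against WT_old it was higher in PMdr65 by 0.26 (adjusted p 0.0329) and gave 0.20 in C17 (adjusted p 0.111). CG3156 was called in no contrast, with changes of -0.18 to -0.12 in C17 and -0.09 to -0.03 in PMdr65. The direction of Hmt-1 in PMdr65 therefore turned with the control.

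Among the 5 ABCC genes, only MRP, whose relatives export glutathione and other conjugates, was called against all 3 control groups, and only in C17. Its log2 signal was 9.71, 9.77 and 9.63 in C17 and 9.50, 9.65 and 9.55 in PMdr65. The controls gave 9.24, 9.46 and 9.26 in WT_new, 9.55, 9.56, 9.53, 9.44 and 9.48 in WT_old, and 9.33, 9.42 and 9.44 in UAS_control. The C17 arrays were above all control arrays, by as little as the gap between 9.63 and 9.56, whereas the PMdr65 arrays overlapped WT_old. The change in C17 was 0.38 ± 0.07, 0.19 ± 0.06 and 0.31 ± 0.07 against WT_new, WT_old and UAS_control (highest adjusted p 0.0437). In PMdr65 MRP was called against WT_new only (0.25), with 0.06 against WT_old (adjusted p 0.556) and 0.17 against UAS_control (adjusted p 0.0659). The difference between the mutants was 0.14, with a 95% interval of -0.01 to 0.29 and an adjusted p of 0.351. The call in C17 was lost in 10 of 17 fits with 1 array left out, namely without any C17 array, PMdr65 array 1 or 3, WT_old array 2, 3, 4 or 5, or UAS_control array 2 (highest adjusted p 0.0502 to 0.185), and in the unfiltered table (0.0683).

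Cftr, the fly homologue of the chloride channel, was higher than WT_new in both mutants (0.54 in C17 and 0.68 in PMdr65) and was not called against the other control groups (0.30 and -0.22 in C17, adjusted p 0.23 and 0.348; 0.43 and -0.09 in PMdr65, 0.0593 and 0.744). CG31793, CG7627 and CG7806 were called against no control group, with changes between -0.32 and 0.13.

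The 3 ABCF genes encode proteins that have ATP-binding domains without a membrane domain and that act in translation in yeast. CG1703 and CG9330 were lower in both mutants than in WT_new and UAS_control: CG9330 changed by -0.46 and -0.49 in C17 and by -0.50 and -0.54 in PMdr65. For CG1703 the changes were -0.46 and -0.30 in C17 and -0.51 and -0.35 in PMdr65. Against WT_old the changes of both genes lay between -0.01 and 0.08, and neither was called. CG9281 was called in none of the 6 mutant contrasts.

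Atet was the ABCG gene called in both mutants. It gave 11.34, 11.33 and 11.32 in C17 and 11.24, 11.32 and 11.35 in PMdr65. The control values were 10.68, 10.87 and 10.79 in WT_new, 10.90, 11.11, 10.98, 10.75 and 11.02 in WT_old, and 10.97, 11.20 and 10.98 in UAS_control. All 6 mutant arrays were above all 11 control arrays, and the closest control was UAS_control array 2. The change in C17 was 0.55 ± 0.09, 0.37 ± 0.08 and 0.27 ± 0.09 against WT_new, WT_old and UAS_control (highest adjusted p 0.0204), and in PMdr65 0.52, 0.35 and 0.25 (highest adjusted p 0.0353). The call in C17 was lost without C17 array 1 or 2 or UAS_control array 1 or 3 (highest adjusted p 0.0518 to 0.0708), and in PMdr65 without PMdr65 array 2 or 3 or the same UAS_control arrays (0.0852 to 0.11). The call in PMdr65 was also lost with a further quantile normalization (0.0732), with array weights (0.0505) and with only the groups compared (0.077). The name of its probe set ends in _s_at, the platform's mark for probes that match several transcripts, as do those of 6 other genes here (CG9281, CG17646, CG31689, CG4822, CG9664 and Oatp30B).

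Of the other 9 ABCG genes, 0 were called against all 3 control groups in a mutant. CG9663 was higher than WT_new in both mutants (0.80 in C17 and 0.61 in PMdr65), and its neighbour CG9664 was not called. CG31689 was higher than WT_old by 0.90 in C17 and 0.91 in PMdr65, and a second probe set of this gene with dimmer signals gave 0.06 and -0.05 in these contrasts (adjusted p 0.822 and 0.821), so its probe sets disagree. CG3164 was higher than WT_old by 0.55 in C17 and 0.76 in PMdr65, and than WT_new by 0.49 in PMdr65. CG17646 was lower than WT_old, with changes of -0.38 and -0.40. E23, an ecdysone-induced gene that dampens the response to the hormone, gave 0.01 to 0.14 in C17 and 0.13 to 0.26 in PMdr65 and was not called.

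CG5853 was the gene that differed most between control groups. Its log2 signal was 6.90, 8.39 and 7.47 in UAS_control, 6.32, 6.31 and 6.70 in WT_new, and 5.71, 6.05, 5.87, 5.94 and 5.78 in WT_old. The mutants gave 6.45, 5.86 and 5.94 in C17 and 6.03, 6.51 and 6.37 in PMdr65. Every UAS_control array was above every other array, and the 3 arrays of that group spanned more than any other group did. It was higher in UAS_control than in WT_new by 1.14 ± 0.27 (adjusted p 0.0115) and than in WT_old by 1.72 ± 0.24 (adjusted p 4.22e-05); with only the groups compared, the former did not pass (0.152). Accordingly C17 and PMdr65 were lower than UAS_control (-1.501 and -1.279) and were not called against the Canton S sets.

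**Figure D3:**
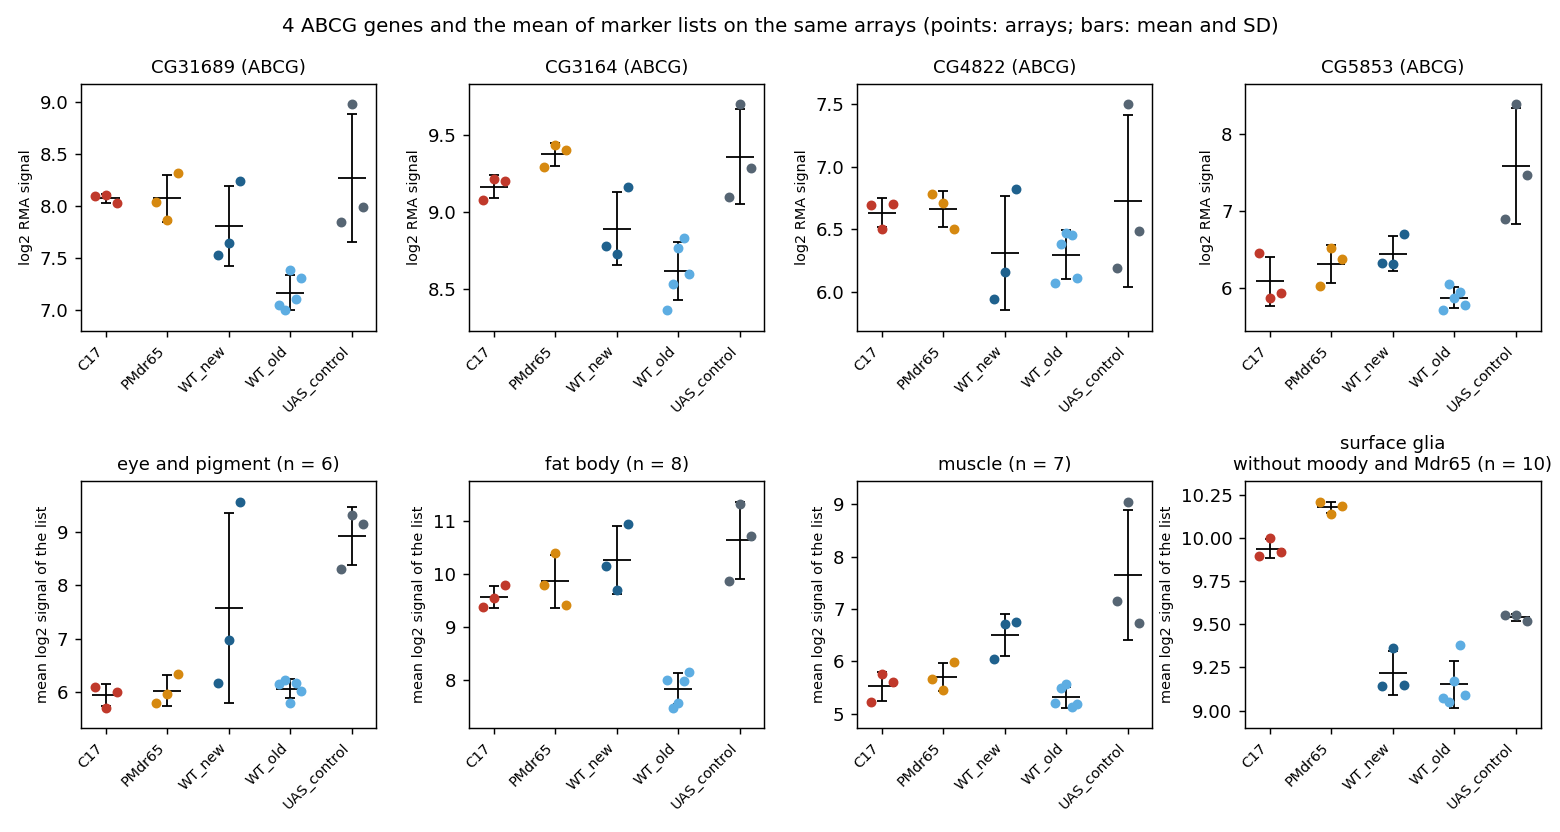
Upper row, log2 signal of 4 ABCG genes by group; lower row, mean log2 signal of marker lists on the same arrays, with the number of measured genes in brackets. Points are arrays and bars give the mean and SD. UAS_control array 2 is the highest array in each upper panel and in the fat body and muscle panels, and WT_new array 3 is the highest in the eye panel.

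UAS_control array 2 gave the highest value of all arrays for 6 of the 33 genes (18.2%), namely CG17646, CG31689, CG3164, CG4822, CG5853 and Oatp30B, against 10.7% of all genes. Within WT_new, array 3 was the highest for CG31689, CG3164, CG4822, CG5853, CG17646, CG32091 and CG9664, and not for the others of the 33 genes. Of all 17 arrays it was the highest for 1 of the 33 genes (3.03%, against 2.99% of all genes). It was the lowest for 4, and 12.5% of all genes were lowest there. On UAS_control array 2 and WT_new array 3 some markers of other tissues were high. The 6 measured of 10 eye and pigment markers (trp, Arr1, Arr2, chp, bw and st) averaged 9.56 on WT_new array 3 and 8.30 to 9.30 in UAS_control, against 5.72 to 6.98 on the other arrays. The rise was in trp, Arr1, Arr2 and chp. The pigment genes bw and st were highest on WT_new array 3, but bw lay between 6.56 and 7.17 on all arrays. In UAS_control st was 4.62 to 5.10, against 4.35 to 4.88 in WT_old. The 8 measured of 10 fat body markers averaged 11.32 on UAS_control array 2 and 10.95 on WT_new array 3. They averaged 9.38 to 10.72 on the other arrays outside WT_old, and 7.48 to 8.15 in WT_old. The yolk protein genes Yp1 to Yp3, apolpp, Apoltp and fon were highest on UAS_control array 2. Lsp2 was highest in PMdr65 (7.07 to 9.02, against 5.57 on UAS_control array 2). Obp44a was highest in C17 and lay between 13.94 and 14.32 on all arrays. The 7 measured of 10 muscle markers averaged 9.05 on UAS_control array 2 and between 5.13 and 7.16 elsewhere. TpnC4 and flr were not highest on that array, whereas the other muscle markers were. The 4 measured of 8 trachea and tubule markers averaged 7.60 on UAS_control array 2 and 7.13 on WT_new array 3. They averaged 6.75 and 6.93 on the other UAS_control arrays and 5.49 to 6.13 elsewhere. Gasp and serp were highest on UAS_control array 2, and btl and Irk2 were not. The 7 haemocyte markers averaged 7.64 to 7.99 in UAS_control, highest on array 2, and 6.61 to 7.49 elsewhere. Of these, srp (6.28) and NimC1 (7.44) were highest on UAS_control array 2, whereas Hml, He, Col4a1, vir-1 and Pxn were not. The part of these tissues in the ABCG results was not tested. With both arrays left out, a choice made after seeing the data, the number of genes called against all 3 control groups was 5 in C17 and 4 in PMdr65. The calls lost were Orct2 in C17 and Oatp74D in PMdr65. UAS_control arrays 1 and 3, with eye and pigment averages of 8.30 and 9.15, stayed in that fit.

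Of the 4 Oatp genes, Oatp33Ea gave the largest difference found among the 33 genes. Its log2 signal was 3.47, 3.57 and 3.45 in C17 and 6.76, 6.88 and 6.74 in PMdr65. The controls gave 6.92, 7.05 and 6.78 in WT_new, 6.45, 6.65, 6.70, 6.98 and 6.67 in WT_old, and 6.77, 6.79 and 6.66 in UAS_control. The C17 arrays were far below all others, and the other 14 arrays overlapped freely. The change in C17 was -3.42 ± 0.11, -3.19 ± 0.09 and -3.24 ± 0.11 against WT_new, WT_old and UAS_control (highest adjusted p 1.57e-11). In signal this is 10.7-fold, 9.13-fold and 9.45-fold lower. In PMdr65 the changes were -0.13, 0.10 and 0.05, and none was called (lowest bound of the 95% intervals -0.35, highest 0.30).

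The C17 signals of Oatp33Ea exceeded only 10.9% to 12.2% of the probe sets of the unfiltered table on their arrays. On the other arrays this share was 47.5% to 54.5%. The C17 signals lay below those of Mdr65 in PMdr65 (4.65 to 4.72) and above those of moody in C17 (2.10 to 2.30). In C17 moody exceeded 0.149% to 0.57% of the probe sets. No detection calls are given, and the C17 signal is not shown to lie above background. The folds are therefore those of signals, and would be lower bounds for RNA only if the sequence of the line leaves the probes unaffected. The size of the change in RNA was not determined. The call was present in all 17 fits with 1 array left out, with changes between -3.49 and -3.12. The measured genes next to Oatp33Ea in the RefSeq order, eRF3 and CG5421, were not called in C17 against all 3 control groups, with changes of -0.06 to 0.54 and -0.87 to -0.10. What lies behind the low signal in C17, in the expression of the gene, the sequence of the line or elsewhere, was not tested.

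Oatp74D, the importer that brings ecdysone into cells, was higher in both mutants. Its log2 signal was 8.61, 8.65 and 8.58 in C17 and 8.30, 8.47 and 8.54 in PMdr65. The controls gave 7.64, 7.54 and 7.43 in WT_new, 6.74, 7.27, 7.11, 6.99 and 6.76 in WT_old, and 8.32, 7.70 and 7.77 in UAS_control. The C17 arrays were above all controls, whereas 1 PMdr65 array (8.30) fell just short of UAS_control array 1 (8.32). The change was 1.07 ± 0.15, 1.63 ± 0.14 and 0.68 ± 0.15 in C17 (1.60-fold to 3.11-fold; highest adjusted p 0.00257) and 0.90, 1.46 and 0.51 in PMdr65 (highest adjusted p 0.017). The size depended on the control: UAS_control was itself 0.95 above WT_old (adjusted p 4.69e-05), and WT_old fell by 0.56 relative to WT_new (adjusted p 0.00422). In C17 the call was present in all 17 fits with 1 array left out, and in PMdr65 it was lost without PMdr65 array 3 or UAS_control array 2 or 3 (highest adjusted p 0.0607 to 0.0773). It was also lost there with only the groups compared (0.0696) and without both WT_new array 3 and UAS_control array 2 (0.0778).

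Oatp58Dc changed direction with the control, 0.26 and 0.31 higher than WT_old in C17 and PMdr65 but with changes of -0.41 and -0.35 against UAS_control. Of its 6 mutant contrasts, Oatp30B was called in C17 against UAS_control (-0.29).

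**Figure D4:**
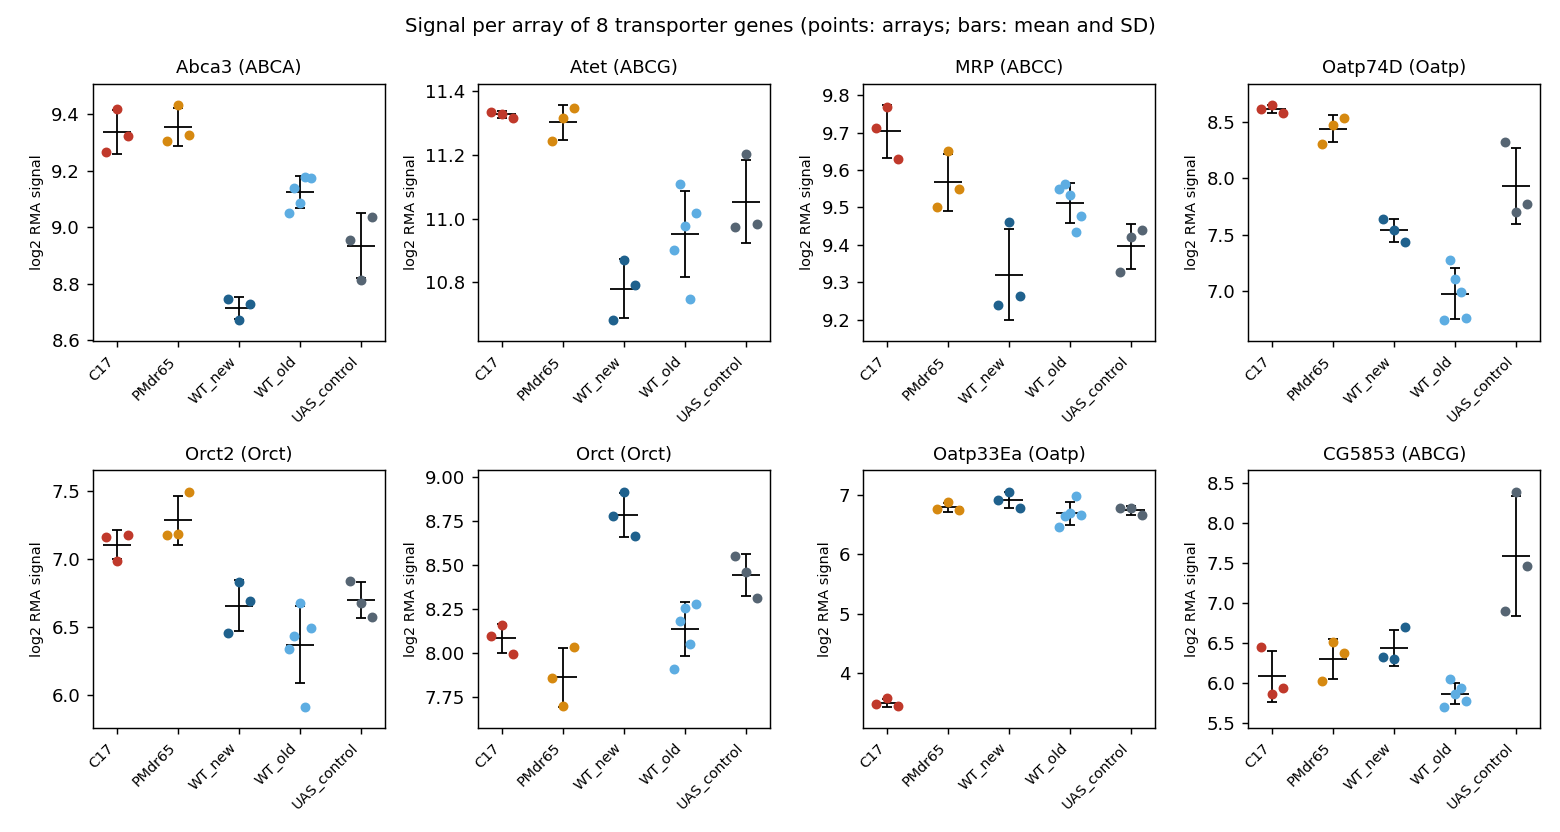
Log2 signal of 8 genes by group; points are arrays and bars give the mean and SD, and the vertical scales differ between panels. The 6 mutant arrays lie above all control arrays for Abca3, Atet and Orct2, and for MRP and Oatp74D the 3 C17 arrays do. Oatp33Ea is low in C17 alone, and CG5853 is high in UAS_control.

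Orct and Orct2, which lie next to each other in the RefSeq order and are related to organic cation carriers, went in opposite directions. Orct2 gave 7.16, 6.98 and 7.17 in C17 and 7.18, 7.18 and 7.49 in PMdr65. In the controls it was 6.46, 6.83 and 6.69 in WT_new, 6.34, 6.43, 6.68, 5.92 and 6.49 in WT_old, and 6.84, 6.68 and 6.57 in UAS_control. All 6 mutant arrays were above all 11 control arrays. The change was 0.45 ± 0.16, 0.73 ± 0.14 and 0.41 ± 0.16 in C17 (highest adjusted p 0.0486) and 0.62 ± 0.16, 0.91 ± 0.14 and 0.58 ± 0.16 in PMdr65 (highest adjusted p 0.00888). The call in PMdr65 was present in all 17 fits with 1 array left out. That in C17 was lost in 12 of them, namely without any C17 array, PMdr65 array 1 or 2, WT_new array 1 or 3, WT_old array 1, 2 or 5, or UAS_control array 2 or 3 (highest adjusted p 0.0545 to 0.136). It was also lost in the unfiltered table (0.0612), with a further quantile normalization (0.051), with array weights (0.0614) and without both WT_new array 3 and UAS_control array 2 (0.103).

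Orct gave 8.09, 8.16 and 7.99 in C17 and 7.85, 7.70 and 8.03 in PMdr65. The control values were 8.78, 8.92 and 8.66 in WT_new, 7.91, 8.18, 8.25, 8.05 and 8.28 in WT_old, and 8.55, 8.46 and 8.31 in UAS_control. Both mutants were below all arrays of WT_new and UAS_control and overlapped WT_old. In PMdr65 the change was -0.92 ± 0.11, -0.27 ± 0.10 and -0.58 ± 0.11 (highest adjusted p 0.0479). In C17 Orct was called against WT_new (-0.70) and UAS_control (-0.36) but not WT_old (-0.05, adjusted p 0.774), and the mutants differed by 0.22, with a 95% interval of -0.01 to 0.45 and an adjusted p of 0.321. The call in PMdr65 was lost in 10 of 17 fits, namely without any C17 array, PMdr65 array 1 or 2, WT_new array 1, WT_old array 2, 3 or 5, or UAS_control array 2 (highest adjusted p 0.0542 to 0.241). It was also lost in the unfiltered table (0.0643), with a further quantile normalization (0.0788), with median centring (0.0848) and with only the groups compared (0.0751).

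In single contrasts, large shares of all genes were called, and the counts of the 33 genes are read against those shares. C17 was higher than WT_new for 10 genes and lower for 6 of the 33 (30.3% and 18.2%, against 24.1% and 17.9% of all genes), and higher than WT_old for 8 and lower for 3 (24.2% and 9.09%, against 11.6% and 8.03%). Against UAS_control C17 was higher for 7 and lower for 9 genes (21.2% and 27.3%, against 23.2% and 20.4%). PMdr65 was higher than WT_new for 10 and lower for 6 genes, against 23.6% and 19.6% of all genes. It was higher than WT_old for 8 and lower for 2 (15.3% and 13.2% of all genes), and higher than UAS_control for 7 and lower for 7 (21.1% and 20%). The median change of the 33 genes lay between -0.09, in C17 against UAS_control, and 0.10, in PMdr65 against WT_old.

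Some of the 33 genes separated the mutants from WT_new and UAS_control but not from WT_old. In C17 these were 2 higher genes (CG1494 and CG6052; 6.06%, against 11.8% of all genes) and 5 lower ones (CG1824, Hmt-1, CG1703, CG9330 and Orct; 15.2%, against 8.78%). In PMdr65 they were 2 higher genes, CG31213 and CG6052 (6.06%, against 9.24% of all genes). The 3 lower genes were CG1824, CG1703 and CG9330 (9.09%, against 8.49%). For the lower genes in either mutant, WT_new and UAS_control were the groups with the highest means. The mutants lay within 0.08 of WT_old for CG1824, CG1703 and CG9330.

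Against each other, the mutants differed in 1 of the 33 genes, Oatp33Ea, which fell by 3.29 in C17 relative to PMdr65 (SE 0.11, adjusted p 9.34e-12). No gene was higher in C17, against 3.71% of all genes higher and 3.23% lower. The other 32 genes gave differences between -0.25 (Oatp30B) and 0.22 (Orct) that did not pass, with 95% intervals reaching from -0.80 to 0.54. With array weights, or with only the mutant arrays in the fit, Oatp30B passed as well.

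The control groups were also compared with each other. WT_old was higher than WT_new for 7 genes and lower for 8 (24.1% and 21% of all genes). Of the ABCA genes, 4 were higher in WT_old (Abca3 0.41, CG1494 0.25, CG31213 0.72 and CG6052 0.59), whereas Orct (-0.65), Hmt-1 (-0.64), CG31689 (-0.64) and Oatp74D (-0.56) were among the lower ones. UAS_control was higher than WT_old for 13 genes and lower for 4 (39.4% and 12.1%, against 27.3% and 27.3% of all genes). After CG5853, the largest of these were CG31689 (1.10), Oatp74D (0.95), CG3164 (0.74), Oatp58Dc (0.67) and Hmt-1 (0.66), and the 4 lower genes were all ABCA genes. The second probe set of CG31689 gave -0.07 here (adjusted p 0.7) and -0.33 for WT_old against WT_new (0.076), called in neither. UAS_control was higher than WT_new for 5 genes (Abca3, Cftr, Atet, CG3164 and CG5853; 8.41% of all genes) and lower for 1 (Orct; 6.4%), a count that ranged from 1 to 8 when each array was left out in turn, 1 being without WT_new array 1.

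For 10 genes the mutants differed from no control group: Eato, CG3156, CG31793, CG7627, CG7806, CG9281, CG32091, CG4822, CG9664 and E23. Their changes lay between -0.32 and 0.38. Over the 6 contrasts the lowest and highest ends of their 95% intervals were -0.66 and 0.92, both for CG4822. Of the 10, 8 were called in none of the 10 contrasts, the exceptions being CG7627 (0.32 higher in UAS_control than in WT_old) and CG9281 (0.16 higher in WT_old than in WT_new). The median residual SD was 0.14 for the 33 genes and 0.13 for all genes.

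Genes of the same pathways outside the 33 were counted from lists written with earlier results of these data known. Their counts of called genes are to be read against the 4.37% higher and 2.27% lower of all genes in C17 and the 5.87% and 3.18% in PMdr65, and in lists of 7 to 15 genes 1 call already exceeds these shares. Of 40 other ABC gene names, 10 were measured, and none was called against all 3 control groups in C17. In PMdr65 the called genes were Mdr65 itself, for which this line is null, and CG10226. The latter, a close relative of Mdr65, was higher by 1.07 to 2.18 (highest adjusted p 0.000405). Of 27 other names of the organic ion carrier family, 15 were measured. Among these CG14855 was higher in both mutants, by 0.25 to 0.44 in C17 (highest adjusted p 0.0282) and 0.73 to 0.92 in PMdr65 (1.21e-05), and CG3168, which also stands among the surface glia markers above, was higher in C17 by 0.60 to 0.86 (0.00435).

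Of 10 measured ecdysone response genes, ftz-f1, a nuclear receptor gene of the ecdysone cascade, was lower in both mutants, with changes of -0.51 to -0.30 in C17 (highest adjusted p 0.00256) and -0.52 to -0.31 in PMdr65 (0.00162). Hr3, another receptor of the cascade, was higher in C17 by 0.31 to 0.69 (0.0349), and the other 8 genes were called against all 3 control groups in neither mutant. Among 7 measured regulators of the response to foreign compounds, Keap1, the inhibitor of the transcription factor cnc, was higher by 0.31 to 0.49 in C17 (0.0142) and by 0.27 to 0.44 in PMdr65 (0.0244). The cnc partner maf-S was lower in PMdr65, with changes of -0.54 to -0.42 (0.00352), and the other 5 regulators were called in neither mutant.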

How the data were processed

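Whole adult brains were measured on 17 Affymetrix arrays, and groups were taken from the labels. The deposited values are log2 signals made by the authors with RMA, per the file headers. The tools affy, RMA and limma are named in the submitters' processing notes, with versions not given in the sources used here. Of probe sets, the series matrix held 13290 of the 18769 in the unfiltered table that were not controls, and the rule behind this choice is not given in the sources used here. Array medians lay between 7.856 and 7.991, and no further normalization was applied. Platform annotation gave 10243 probe sets 1 symbol and 310 several, and all 33 genes were found in RefSeq, which was used only for names and neighbours.

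A linear model with a mean per group was fitted to the 17 arrays (limma 3.58.1, R 4.3.3; residual degrees of freedom 12, prior 2.93), with 10 contrasts and Benjamini-Hochberg adjustment within each over all probe sets. The code was tested on simulated data. Array values were given for genes called in 1 direction against all 3 control groups in a mutant, genes called between the mutants by at least 1 on the log2 scale, and genes that differed by at least 1.5 between control groups. The other genes were given by group, with values where called against some controls. The members, lists and naming rule were chosen with earlier results of these data known.

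Alternatives tried were median centring, quantile normalization once more, the unfiltered table, array weights, a robust trended prior, fits on only the groups compared, the replicate number as a block, the dimmest 40% of probe sets left out, all probe sets of a gene, a limit of 2-fold, and each array left out in turn. Replicate numbers were compared across groups: deviations of the 30 same-numbered pairs correlated between -0.474 and 0.405 with a median of 0.002, against 0.011 for other pairs, so samples were taken to share only a number. The number of arrays limits the precision.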

Additional observations from a re-analysis of the deposited data

Results flagged for a closer look

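In WT_old, CG1824 was lowest on array 4 (7.26, against 7.57 to 7.67 on the other 4 arrays), a gap of 0.749 of the group's range, above Dixon's 95% critical value of 0.71. WT_old was the only group large enough to be examined. Chance alone passes this value for about 1 in 20 genes, so across 33 genes a gap of this size can arise by chance. The contrast between the mutants differed for Oatp33Ea, with a limma log2 change of -3.29 in C17 relative to PMdr65.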

How the results depend on the processing

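Without alternatives, 6 genes were called in C17 and 5 in PMdr65 against all 3 control groups, 1 between the mutants, and 15, 6 and 17 for WT_old against WT_new, UAS_control against WT_new and UAS_control against WT_old. In PMdr65 the count was 3 with a further quantile normalization and 2 with only the groups compared. Between the mutants it was 2 with array weights and with only the groups compared. It was 0 with the dimmest 40% left out, since Oatp33Ea was then among 13 genes not in the fit (mean log2 signal under 7.302). For UAS_control against WT_new it was 2 in the unfiltered table, 3 with quantile normalization, with median centring and with array weights, and 0 with only the groups compared (fewer arrays in the fit); apart from that, the cause was not tested. A limit of 2-fold left 1 gene in C17 (Oatp33Ea), 0 in PMdr65, 0 for WT_old against WT_new, 1 for UAS_control against WT_new and 2 for UAS_control against WT_old. With each array left out in turn, counts ran from 2 to 6 in C17, 2 to 5 in PMdr65, 1 to 1 between the mutants, 12 to 16 for WT_old against WT_new, 1 to 8 for UAS_control against WT_new and 15 to 17 for UAS_control against WT_old. With the replicate block the counts were 4, 4, 1, 15, 4 and 14 in the same order, and Abca3 (highest adjusted p 0.0513) and MRP (0.136) in C17 and Orct in PMdr65 (0.156) were not called. Of 974 refitted changes of 38 gene contrasts in 26 settings, 904 kept their direction and side of the threshold, 70 kept the direction only and 0 reversed. These 38 contrasts were all called in the main fit and the refits share most arrays, so few reversals could arise. A call against all 3 control groups needs 3 such contrasts at once, and its losses are given with each gene. Dim signals limit folds, as for Oatp33Ea in C17.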
